A study of Mus musculus with 12 samples.

Results

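The numbered zinc finger protein genes are the genes that the mouse nomenclature names Zfp followed by a number. They were followed in mouse primary hepatocytes after transcription had been stopped. Of 48440 genes in the count table, 342 had such a symbol once Zfp36, which encodes an RNA-binding protein with another kind of zinc finger, was set aside. The 182 members described here were those with at least 100 reads in each of the 4 libraries made before the drug acted. The members were thus chosen by their read counts at 0 h in both genotypes, and values at 0 h, or relative to 0 h, are given as a description without a test.

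The groups were Mettl3 cKO hepatocytes, in which a floxed Mettl3 was deleted by Cre under the albumin enhancer and promoter, and Control hepatocytes, labelled WT, both from C57BL/6J mice. After 16 h in culture the cells of both genotypes received 5 µM actinomycin D for 0, 2 or 6 h, with 2 libraries for each genotype and time and 12 in all. Cre from this promoter acts in hepatocytes, so other cells of a culture may keep the gene, which was not tested. The age of the mice, and whether the replicates came from separate animals or cultures, are not given in the sources used here. The p-values therefore cover the spread from library to library alone, and that spread may be technical.

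Mettl3 is the catalytic subunit of the complex that writes N6-methyladenosine (m6A) into messenger RNA, mostly in long last exons and near stop codons, and m6A is known to speed the decay of many of the transcripts that carry it. Actinomycin D blocks RNA polymerases, so the RNA that is left afterwards is what has not yet decayed. Most numbered Zfp genes encode proteins with tandem C2H2 fingers, small folds held by a zinc ion that read DNA bases. In mammals many of these proteins also carry a KRAB domain, which recruits the corepressor Trim28 and the histone methyltransferase Setdb1 to silence retroelements and imprinted genes. Their genes lie in clusters that arose by duplication, and their mRNAs are known as short-lived in many cell types.

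Here 45 members lay on chromosome 7, 21 on chromosome 17 and 14 on chromosome 8. A coding transcript was found for 181 of the 182 in the GENCODE M21 annotation (GRCm38, the same assembly as mm10), the exception being Zfp125, which is annotated there as a transcribed pseudogene. These transcripts encoded a median of 9 C2H2 fingers, with a range of 0 to 36. Successive fingers are often joined by a short linker whose amino acids are threonine, glycine, glutamate, lysine and proline. The DNA that encodes this linker can be alike between members, over a stretch shorter than a sequencing read of 150 bp. The sites sought encode a finger's last histidine, a linker with these last 4 amino acids, and the start of the next finger. Only part of the members was searched, and sites interrupted by an intron were left out. The search found 616 sites in 111 members, and these are not totals over all 182 members. The sites found had 499 distinct sequences of 27 bases. Among them the most frequent sequence occurred in 15 copies across 8 members. Below it stand the first linkers of 3 pairs, namely the members with the largest positive differences between genotypes at 2 h (Zfp868 and Zfp790), those with the largest negative ones (Zfp949 and Zfp946) and the neighbours Zfp747 and Zfp764. Capitals mark the 5 codons of the linker, and all are written 5′ to 3′ on the coding strand from GENCODE M21 transcripts.
Most frequent linker: catACTGGAGAGAAACCTtacaaatgt
Zfp868: catACTGGAGAGAAACCTtatgaatgt
Zfp790: catACTGGGGAGAAGCCGttcacgtgt
Zfp949: cacACAGGAGAAAAGCCCtatggatgc
Zfp946: catACAGGAGAAAAACCTtacaaatgt
Zfp747: cacACAGGTGAAAAGCCGtttcagtgc
Zfp764: cacACAGGTGAAAAGCCGtttcagtgc

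These sites lie in coding exons at chr8:69612044-69612070 (minus strand) for Zfp868, chr7:29828627-29828653 (plus) for Zfp790, chr9:88569330-88569356 (plus) for Zfp949, chr17:22455056-22455082 (plus) for Zfp946, chr7:127374451-127374477 (minus) for Zfp747 and chr7:127405412-127405438 (minus) for Zfp764. The sites of Zfp747 and Zfp764 were identical. Only uniquely mapped reads were counted. Apart from that, 11 members shared over 20% of their 100-base words with a transcript of another gene, on either strand. Genes that overlap a member at its own locus were not set apart from copies elsewhere. These 11 members were Zfp106, Zfp414, Zfp507, Zfp532, Zfp59, Zfp597, Zfp617, Zfp653, Zfp865, Zfp932 and Zfp935, of which Zfp935 shared 99.4%. Their counts, and that of Zfp125, are uncertain. Among these 11 members the median log2 difference at 2 h was 0.42, against 0.99 among the 170 other members with a coding transcript.

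The libraries held 16952084 to 20914516 counted reads. The Mettl3 count, which includes exons outside the deleted part and so does not check the deletion, was 22.6 and 23.2 CPM (counts scaled so that each library sums to 1000000) in cKO and 33.4 and 28.5 CPM in Control at 0 h. It was 24.0 and 25.8 CPM in cKO and 24.2 and 25.5 CPM in Control at 2 h, and 19.4 and 24.2 CPM in cKO against 15.0 and 13.7 CPM in Control at 6 h, where it was higher in cKO by the test used below (log2 difference 0.60 ± 0.11 (SE), adjusted p = 6.5e-05, edgeR). The 2 Control libraries at 6 h stood apart from the other 10. Xist, the X-inactivation RNA, had 20246 and 16565 reads in them and 6 or fewer elsewhere, and the Y-linked Ddx3y had 0 and 1 reads in them and 2440 or more elsewhere. By these 2 genes, the 2 libraries came from female mice and the other 10 from male mice. Control values at 6 h relative to 0 h or 2 h therefore also compare different animals. The 2 cKO libraries at 6 h also stood apart, in Eno1b, with 4 and 2 reads in them and 844 or more in the other 10. At 6 h, genotype cannot be told apart from sex or from whatever else set these 4 libraries apart. The 2 h comparison is therefore given first and was refitted without the 6 h libraries. The 6 hepatocyte markers were present in every library, with summed levels of 45978 to 49033 CPM in cKO and 50165 to 51428 CPM in Control at 0 h. All 8 macrophage markers were detected in every group and summed to 374 to 404 CPM in cKO against 161 to 163 CPM in Control at 0 h, 427 to 442 against 195 to 213 CPM at 2 h, and 270 to 290 against 90.1 to 110 CPM at 6 h. All 5 bile duct markers were also detected in every group and were lower in cKO, at 52.9 to 54.3 CPM against 210 to 217 CPM in Control at 2 h. Of the 5 blood markers, Cd3e was at 0 in every group, and the sum was 11.6 to 14.1 CPM in cKO and 7.68 to 7.93 CPM in Control at 2 h. The 6 stellate cell markers summed to 221 to 235 CPM in cKO and 159 to 165 CPM in Control at 2 h, and the 6 endothelial markers to 226 to 251 CPM in cKO and 194 to 207 CPM in Control at 0 h, 114 to 146 against 129 to 133 CPM at 2 h, and 35.3 to 41.9 against 11.9 to 13.2 CPM at 6 h. The part of these cells in the results below was not tested, and in bulk libraries fewer cells of a type and less RNA per cell cannot be told apart. Alb, the most abundant hepatocyte marker, made up 5.14% and 5.16% of reads in cKO at 6 h and 8.79% and 9.52% in Control, a share that enters every CPM at that time.

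Before the drug acted, numbered Zfp genes took up slightly more of the cKO libraries. Their summed level was 7343 and 7265 CPM in cKO and 6011 and 6149 CPM in Control, and the median member stood at 25.97 CPM in cKO and 20.5 CPM in Control. Both cKO libraries were above both Control libraries for 110 members and below them for 43, while over all 9783 genes with 100 reads in each 0 h library the shares were 42.3% above and 36.6% below. The median log2 ratio at 0 h was 0.27 over the members and 0.02 over all those genes. The ratios ranged from -1.62 for Zfp946 to 1.54 for Zfp703, a corepressor of the NET family linked to breast cancer in humans. Of the members at the limit, Zfp2 had 118 and 100 reads in cKO and 100 and 139 in Control, and Zfp607 had 100 and 114 in cKO and 113 and 106 in Control. Zfp788 was just outside, with 132 and 102 reads in cKO and 99 and 118 in Control.

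**Figure D1:**
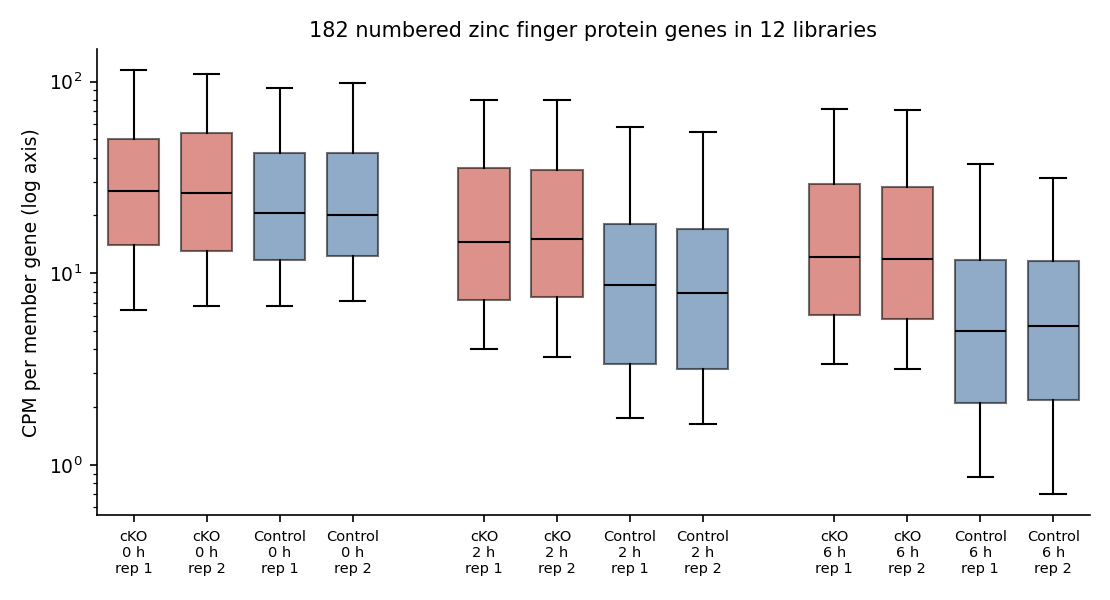
Levels of the 182 numbered zinc finger protein genes in each of the 12 libraries, in CPM on a log axis. Boxes span the quartiles, lines mark medians and whiskers run from the 5th to the 95th percentile, with cKO in red and Control in blue. The median member fell to 15.0 CPM in cKO and 8.18 CPM in Control at 2 h.

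Within 2 h of actinomycin D the members lost a large part of their share of the libraries in both genotypes. At the median 61.7% of the 0 h level was left in cKO and 36.7% in Control, whereas over all genes with 100 reads at 0 h the medians were 95.6% in cKO and 91.9% in Control. CPM are relative to the RNA that remains, so these percentages are not absolute amounts. Less than 50% was left for 55 of 182 members in cKO and for 126 in Control, while 6.38% of all such genes met that mark in cKO and 14.7% in Control. The share left was larger in cKO than in Control for 164 of 182 members, as it was for 61.3% of all such genes. By 6 h the members' medians were 52.4% in cKO and 23.3% in Control, beside 87.4% in cKO and 70.6% in Control over all such genes. The summed level of the members was then 4385 and 4288 CPM in cKO and 2268 and 2195 CPM in Control, after 5005 and 4929 CPM in cKO and 3194 and 3084 CPM in Control at 2 h.

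**Figure D2:**
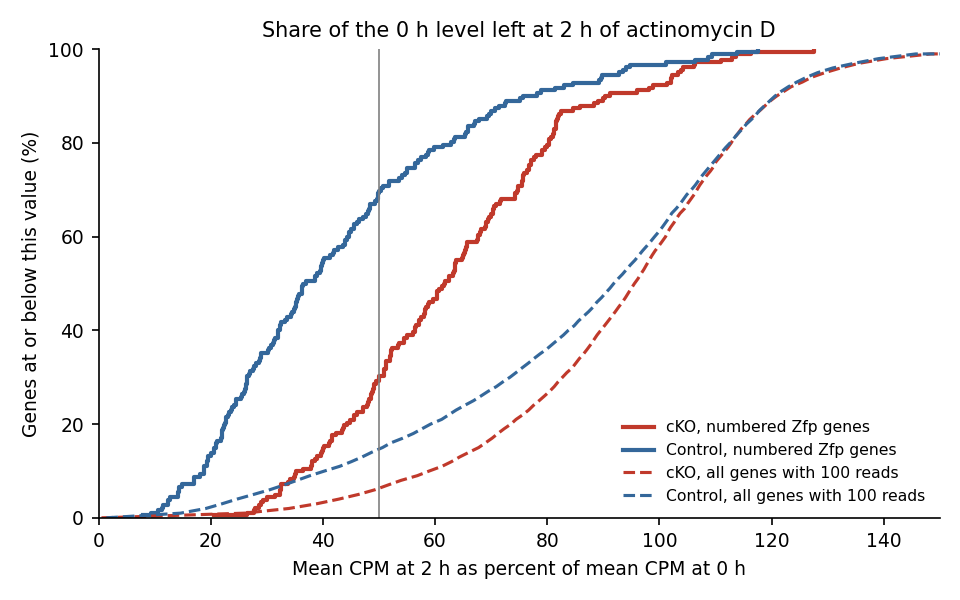
Cumulative share of genes (vertical axis, %) by the mean CPM at 2 h as a percentage of the mean CPM at 0 h (horizontal axis). Solid lines are the 182 members and dashed lines all 9783 genes with 100 reads in each 0 h library, with cKO in red and Control in blue. The members' medians are 61.7% in cKO and 36.7% in Control.

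The members spread widely around these medians. Zfp27, with 21 fingers, kept least in Control, with 29.3% left in cKO and 7.94% in Control at 2 h. Its levels at 2 h were 2.45 and 1.82 CPM in cKO and 0.958 and 0.280 CPM in Control, the last of them 5 reads. Zfp790 had 39.0% left in cKO and 9.38% in Control, and Zfp84, the lowest member in cKO, had 20.6% left there and 11.4% in Control. At the other end Zfp706 had 111% left in cKO and 109% in Control, and Zfp692 had 128% in cKO and 118% in Control. These last members held their share of the library over 2 h in both genotypes.

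The first tested comparison asked how the genotypes differed after 2 h, in libraries that the choice of members had not used. In cKO 135 members were higher, 16 were lower and 31 did not pass, by edgeR's quasi-likelihood test on counts with library sizes equal to the totals and a threshold of 0.05 for the adjusted p over 14488 genes. Of all genes tested, 37.8% were higher and 21.3% lower in cKO. The median log2 difference was 0.94 over the members, 0.15 over all genes tested and 0.09 over genes with 100 reads at 0 h. The median over all genes tested moved to 0.03 when library sizes were set by TMM. The members' median stood 0.79 above that of all genes tested with either scaling. Rescaling the libraries moves every gene by nearly the same amount, so this distance is no check of the scaling. Without the 6 h libraries, 138 members were higher and 16 lower. Both cKO libraries were above both Control libraries for 147 members and below them for 21, beside 49.9% and 35.7% of the genes with 100 reads at 0 h. The median absolute log2 difference between replicates was 0.11 over the members in cKO and 0.13 in Control at 2 h.

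Zfp868 had the largest difference, with 9 fingers and a locus on chromosome 8 (69610857 to 69625548, minus strand). It stood at 15.7 and 16.5 CPM in cKO and 1.81 and 2.36 CPM in Control at 2 h, after 25.3 and 22.2 CPM in cKO and 12.4 and 12.2 CPM in Control at 0 h. The log2 difference at 2 h was 2.95 ± 0.17 (SE, n = 2 each, adjusted p = 6.2e-13, edgeR). Zfp790, with 12 fingers, had 12.03 and 12.4 CPM in cKO and 1.17 and 2.30 CPM in Control, a log2 difference of 2.82 ± 0.21. Both genes were already apart in the same direction at 0 h, and the groups did not overlap at either time.

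Zfp703 was at 90.0 and 90.1 CPM in cKO and 14.7 and 11.9 CPM in Control at 2 h, a log2 difference of 2.76 ± 0.11. Its coding transcript matched no C2H2 finger of the pattern used. Zfp628, with 16 fingers, had 16.6 and 16.4 CPM in cKO and 2.98 and 1.91 CPM in Control, and Zfp229, also with 16 fingers, had 12.2 and 12.1 CPM in cKO and 1.54 and 2.13 CPM in Control. The other 5 of the 10 largest were Zfp623, Zfp46, Zfp707, Zfp954 and Zfp830, with log2 differences of 2.63, 2.51, 2.45, 2.44 and 2.44. Zfp830 is known in humans as a part of complexes bound to the spliceosome. All 10 were higher in both cKO libraries than in either Control library at 2 h, as were 49.9% of the genes with 100 reads at 0 h. The 10 were chosen by their difference in these same libraries, so this adds no evidence.

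The members that were lower in cKO changed less. Zfp949, with 11 fingers on chromosome 9, had 2.45 and 2.46 CPM in cKO and 8.62 and 7.68 CPM in Control at 2 h, a log2 difference of -1.73 ± 0.19 (SE, n = 2 each, adjusted p = 5.1e-08, edgeR). At 0 h it had been at 6.31 and 7.81 CPM in cKO and 11.5 and 12.9 CPM in Control, so that 34.8% was left in cKO and 66.9% in Control. Zfp946, on chromosome 17, had 5.06 and 6.37 CPM in cKO and 12.8 and 11.2 CPM in Control at 2 h, a log2 difference of -1.07 ± 0.16. At 0 h it had already been apart, at 5.74 and 5.32 CPM in cKO and 15.1 and 18.8 CPM in Control, and 103% of that level was left in cKO at 2 h against 70.7% in Control.

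The next 8 lower members, Zfp512, Zfp367, Zfp329, Zfp950, Zfp692, Zfp326, Zfp664 and Zfp335, had log2 differences of -0.84 to -0.43. Zfp326 belongs in humans to a complex that couples transcription elongation to splicing, and Zfp335 is part of a histone H3 lysine methyltransferase complex. Zfp664 was at 79.8 and 79.7 CPM in cKO and 113 and 104 CPM in Control. The call of Zfp950 was lost without cKO replicate 2 at 2 h (log2 difference -0.41, adjusted p = 0.103, edgeR). The remaining 6 that were lower were Zfp125, Zfp143, Zfp358, Zfp384, Zfp395 and Zfp622.

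At 6 h the gap was wider. In cKO 153 members were higher, 6 were lower and 23 did not pass, beside 46.4% of all genes tested that were higher and 19.8% that were lower. The median log2 difference was 1.29 over the members and 0.32 over all genes tested, and under TMM these were 1.00 and 0.03. TMM called 126 members higher and 15 lower, and DESeq2's size factors 120 and 17. Over all 14488 genes tested, TMM called 5135 higher and 4797 lower, and DESeq2's size factors 4901 and 5098. Of the 135 members higher at 2 h, 133 were higher again at 6 h, and 19 members were higher at 6 h alone. Of the 16 lower at 2 h, 6 were lower again, 9 did not pass and 1, Zfp125, was higher. At neither time did 12 members pass the test, among them Zfp207, Zfp346 and Zfp706. Of these, Zfp207 was called lower at 6 h under TMM (-0.42, adjusted p = 2.1e-06, edgeR), with DESeq2's size factors (-0.47) and with the Wald test (-0.48), against -0.13 with library totals. The 2 h and 6 h comparisons share no library, although both were fitted with 1 estimate of the spread. Both cKO libraries were above both Control libraries for 160 members and below them for 10, beside 57% and 29% of the genes with 100 reads at 0 h. All of these 6 h calls rest on the libraries that stood apart.

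**Figure D3:**
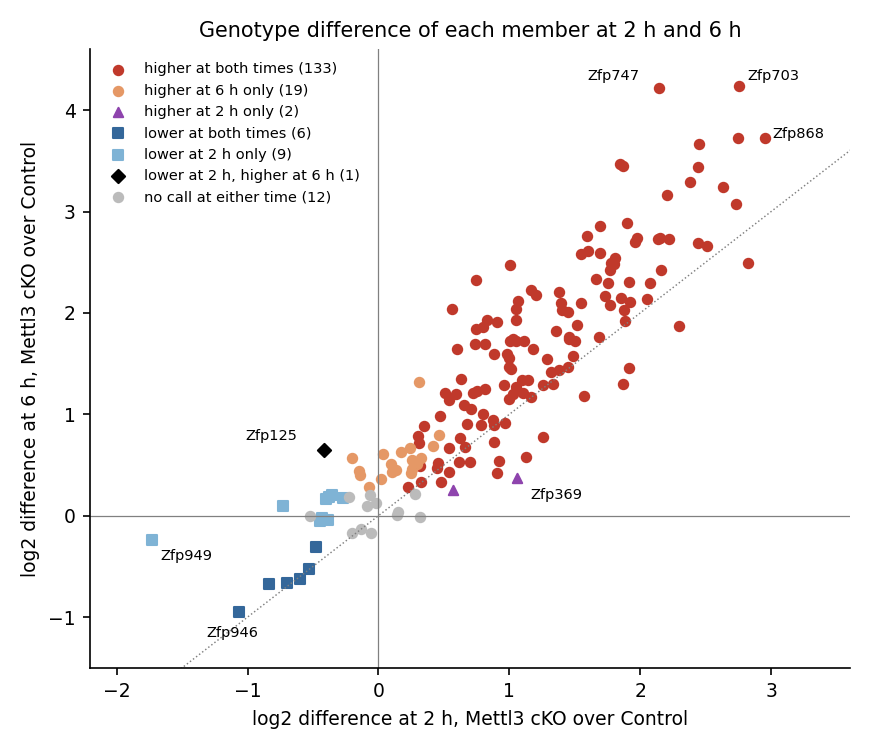
Log2 difference between cKO and Control at 2 h (horizontal) and at 6 h (vertical) for each of the 182 members, with colour and shape for the calls at the 2 times. The dotted line marks equal differences. The 133 members higher at both times lie mostly above that line, and 6 were lower at both times.

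Zfp703 and Zfp747 stood furthest apart at 6 h. Zfp703 was at 89.1 and 86.7 CPM in cKO and 3.51 and 5.87 CPM in Control, a log2 difference of 4.23 ± 0.12 (SE, n = 2 each, adjusted p = 1.8e-18, edgeR). Between 2 h and 6 h its level in cKO hardly moved. Zfp747 was at 5.64 and 3.74 CPM in cKO and 0.0961 and 0.401 CPM in Control, a log2 difference of 4.22 ± 0.36, and its Control values came from 2 and 8 reads.

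The next 4 were Zfp868, Zfp628, Zfp707 and Zfp748, with log2 differences of 3.72, 3.72, 3.67 and 3.47. The 6 members lower in cKO at 6 h were Zfp946, Zfp512, Zfp329, Zfp950, Zfp692 and Zfp326, from -0.95 for Zfp946 to -0.31 for Zfp326. Without Control replicate 1 at 6 h only 3 members were lower, since Zfp326, Zfp692 and Zfp950 no longer passed. Zfp326 and Zfp950 were also lost without cKO replicate 2, and Zfp329 without cKO replicate 1. Zfp692, known to bind the promoter of a gluconeogenic gene, had 10.2 and 10.2 CPM in cKO and 16.4 and 13.04 CPM in Control.

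Zfp125 was the member called in opposite directions. It was at 6.26 and 6.48 CPM in cKO and 8.72 and 8.24 CPM in Control at 2 h (log2 difference -0.41 ± 0.15), and at 6.17 and 5.58 CPM in cKO and 4.13 and 3.36 CPM in Control at 6 h (0.65 ± 0.17). The 2 h call was lost when any 1 of the 4 libraries at 2 h was left out, with log2 differences of -0.45 to -0.37. The 6 h call was lost under TMM (log2 difference 0.36, adjusted p = 0.0718, edgeR).

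The third comparison asked whether the genotype difference itself changed between 2 h and 6 h, a test of the difference that leaves the 0 h libraries out of the contrast. For 74 members cKO gained on Control over these 4 h, for 2 it lost, and 106 did not pass. Of all genes tested 26.3% gained and 3.78% lost. Among the 9783 genes with 100 reads in each 0 h library, 3417 gained and 438 lost. The share that gained was thus 40.7% of members and 34.9% of those genes. The median change in the log2 difference was 0.39 over the members and 0.18 over all genes tested, and under TMM 0.22 and 0.01. TMM called 45 and 4 members and DESeq2's size factors 36 and 7. Gains made up 83.7% of the members' calls with DESeq2's size factors and 97.4% with library totals. Over all genes tested these shares were 52.5% and 87.4%. Of those 14488 genes TMM called 2538 gains and 1616 losses, and DESeq2's size factors 2306 and 2088. The level at 6 h was a median 81.3% of that at 2 h in cKO and 64.4% in Control. Over all genes with 100 reads at 0 h these medians were 91.3% in cKO and 78.1% in Control.

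The largest gain was that of Zfp747, from the same cluster on chromosome 7 as Zfp764, with which it shares the linker printed above. Zfp747 had 6.48 and 6.11 CPM in cKO and 1.44 and 1.402 CPM in Control at 2 h, and its log2 difference changed by 2.08 ± 0.52 (SE, adjusted p = 0.0034, edgeR). Without Control replicate 1 at 6 h the change was 1.38 (adjusted p = 0.0536, edgeR). Zfp764 changed by 1.58 ± 0.57, with 1 and 8 reads in Control at 6 h, and its call was lost under TMM and when any of 6 libraries was left out, with a change of 0.74 without Control replicate 1 at 6 h. Zfp748 and Zfp41 changed by 1.62 ± 0.43 and 1.59 ± 0.35.

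In the other direction stood Zfp57 and Zfp369. Zfp369 changed by -0.69 ± 0.25, a call lost when replicate 2 of any of the 4 groups was left out, with changes of -0.59 to -0.48. Zfp57 was at 54.3 and 54.4 CPM in cKO and 29.4 and 28.7 CPM in Control at 2 h, and at 45.5 and 39.7 CPM in cKO and 32.5 and 31.2 CPM in Control at 6 h. Its log2 difference of 0.90 ± 0.08 at 2 h was 0.42 ± 0.08 at 6 h, a change of -0.49 ± 0.11 (SE, adjusted p = 0.0017, edgeR). Its call at 6 h was lost under TMM (0.13, adjusted p = 0.146, edgeR), with DESeq2's size factors (0.081) and with the DESeq2 Wald test (0.069).

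**Figure D4:**
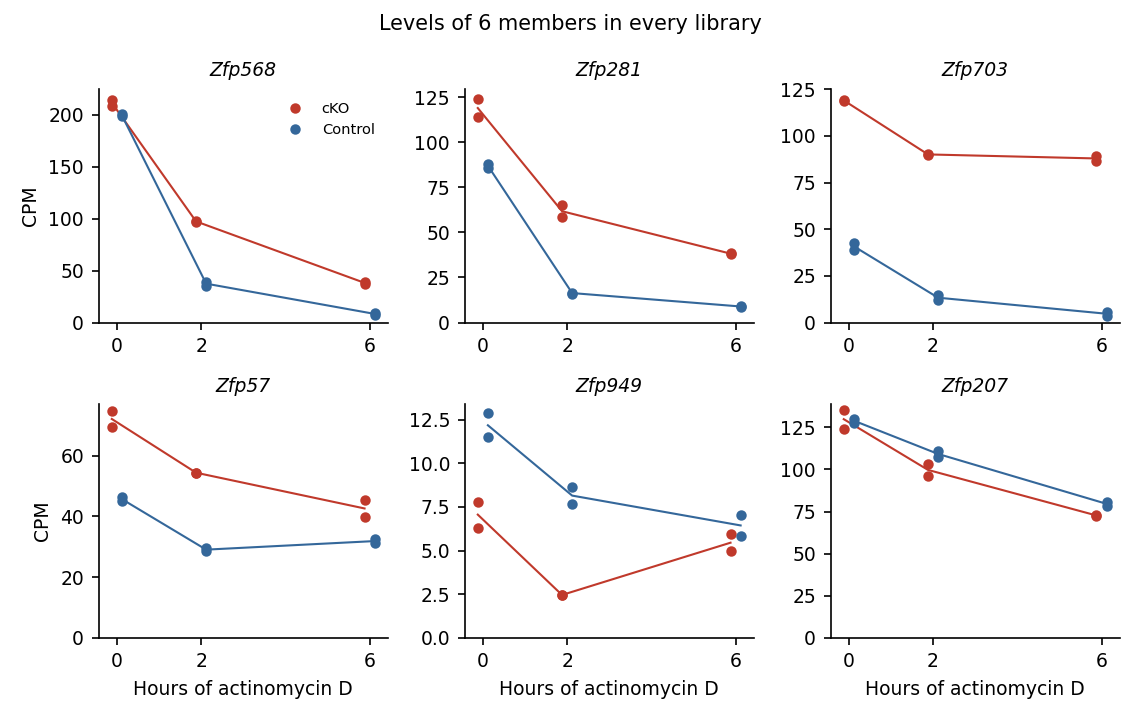
CPM of Zfp568, Zfp281, Zfp703, Zfp57, Zfp949 and Zfp207 against hours of actinomycin D. Each point is a library, and lines join the means of the 2 libraries, with cKO in red and Control in blue. Zfp703 keeps 89.1 and 86.7 CPM in cKO at 6 h against 3.51 and 5.87 CPM in Control, while Zfp207 lies close together in both genotypes.

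Of 6 genes listed for a role in imprinting or retroelement silencing 5 were members, namely Zfp57, Zfp445, Zfp568, Zfp809 and Zfp932. All but Zfp932 were higher at 2 h and at 6 h, although the 6 h call of Zfp57 was lost under the other scalings given above, and none of the 5 was lower. The share called higher was 74.2% at 2 h and 84.1% at 6 h over all members, and 37.8% and 46.4% over all genes tested, so 4 of 5 is close to that of the members as a whole. Zfp57 and Zfp445 both bind methylated imprinting control regions with Trim28 and keep their methylation in the embryo. Zfp445 was at 45.8 and 46.0 CPM in cKO and 27.8 and 29.5 CPM in Control at 2 h, a log2 difference of 0.68 ± 0.08. Zfp568 represses a placental promoter of Igf2 in mice and was among the members with most reads, at 209 and 214 CPM in cKO and 200 and 198 CPM in Control at 0 h.

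From nearly equal levels at 0 h, Zfp568 fell to 97.7 and 96.9 CPM in cKO, against 39.4 and 35.4 CPM in Control, at 2 h. At 6 h it was at 39.4 and 37.0 CPM in cKO and 8.98 and 7.57 CPM in Control. The log2 difference was 1.38 ± 0.07 at 2 h and 2.20 ± 0.09 at 6 h, and its increase of 0.82 ± 0.12 passed the test (adjusted p = 7.2e-06, edgeR). Zfp809, which silences retroviruses through their primer binding site in mouse embryonic cells, had 6.42 and 6.64 CPM in cKO and 2.29 and 3.08 CPM in Control at 2 h. The log2 difference of Zfp932, the fifth member, was -0.06 ± 0.18 at 2 h, and its counts are among those marked above as uncertain.

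Of 22 genes listed for transcription or chromatin 19 were members, of which 14 were higher and 3 lower at 2 h, and 15 higher and 1 lower at 6 h. The shares higher, 73.7% at 2 h and 78.9% at 6 h, were close to the 74.2% and 84.1% over all members. Over all genes tested, 37.8% were higher and 21.3% lower at 2 h, and 46.4% higher and 19.8% lower at 6 h. Zfp281, a regulator of pluripotency that binds GC-rich promoters, had 58.3 and 65.3 CPM in cKO and 16.6 and 16.0 CPM in Control at 2 h, a log2 difference of 1.92 ± 0.08. At 0 h it had been at 114 and 124 CPM in cKO and 88.1 and 86.0 CPM in Control. Zfp148, which also binds GC-rich promoters, had 78.9 and 76.2 CPM in cKO and 39.4 and 38.1 CPM in Control at 2 h. Zfp609, a partner of the cohesin loader Nipbl and of Integrator, had a log2 difference of 0.80 ± 0.07 at 2 h and 1.86 ± 0.07 at 6 h, when its levels were 91.7 and 90.0 CPM in cKO and 24.5 and 25.6 CPM in Control. The 3 that were lower at 2 h were Zfp143, which binds promoters, Zfp335 and Zfp692.

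The 9 members listed for RNA, ribosomes or protein turnover were divided. At 2 h 4 were higher and 2 lower, and at 6 h 5 were higher and 1 lower, with a median log2 difference of -0.07 at 2 h. The share higher was 44.4% at 2 h and 55.6% at 6 h, beside 37.8% and 46.4% of all genes tested. Of all genes tested, 21.3% were lower at 2 h and 19.8% at 6 h. Several of them were among the members with the highest levels and held their share of the libraries in both genotypes. Zfp91, a ubiquitin ligase, had 293 and 266 CPM in cKO and 231 and 218 CPM in Control at 2 h, after 272 and 267 CPM in cKO and 246 and 256 CPM in Control at 0 h. Zfp106, an RNA-binding protein, had 237 and 227 CPM in cKO and 198 and 199 CPM in Control at 2 h. Its call at 2 h was lost under TMM (log2 difference 0.11, adjusted p = 0.0838, edgeR), and its difference at 6 h was 0.29 with library totals and -0.00446 with TMM.

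Zfp598, known from human cells as the ubiquitin ligase that marks collided ribosomes, had 141 and 140 CPM in cKO and 154 and 142 CPM in Control at 2 h. The groups did not overlap, and the log2 difference of -0.07 ± 0.06 did not pass with library totals (adjusted p = 0.311, edgeR) but did under TMM (-0.19, adjusted p = 0.0095, edgeR) and with both DESeq2 settings (-0.19 and -0.20). Its difference at 6 h, 0.28 ± 0.06 with library totals, was -0.00738 with TMM. Zfp622, a factor in the assembly of the large ribosomal subunit, was lower in cKO at 2 h, at 69.1 and 79.0 CPM in cKO and 92.5 and 101.2 CPM in Control. Its log2 difference at 6 h was -0.05 ± 0.07 with library totals, which did not pass, and -0.34 under TMM, which did (adjusted p = 0.00036, edgeR). Zfp207, a spindle assembly factor, had 103 and 96.1 CPM in cKO and 111 and 108 CPM in Control at 2 h, a log2 difference of -0.13 ± 0.06 that did not pass (adjusted p = 0.0700, edgeR) but did under TMM (-0.25, adjusted p = 0.0012, edgeR). Zfp451, a SUMO ligase, and Zfp638, an RNA-binding protein, were higher in cKO at 2 h, with log2 differences of 1.77 ± 0.07 and 0.75 ± 0.07.

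The number of fingers went with how much of a transcript was left. In Control a median 56.5% was left at 2 h for the 37 members with up to 4 fingers, 39.9% for the 93 with 5 to 12 and 27.5% for the 51 with 13 or more. In cKO these medians were 76.8%, 62.5% and 51.2% in the same order. Across the 181 members with a coding transcript the Spearman correlation of finger number with the percentage left was -0.41 in cKO and -0.44 in Control. For last exon length it was -0.195 in cKO and -0.32 in Control, for coding length -0.249 and -0.248, and for exon number 0.164 and 0.303. Finger number was not separated from these features. The correlations describe genes that share libraries and are not independent. The median log2 difference at 2 h was 0.42 with up to 4 fingers, 1.00 with 5 to 12 and 1.03 with 13 or more, and its Spearman correlation with finger number was 0.16.

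**Figure D5:**
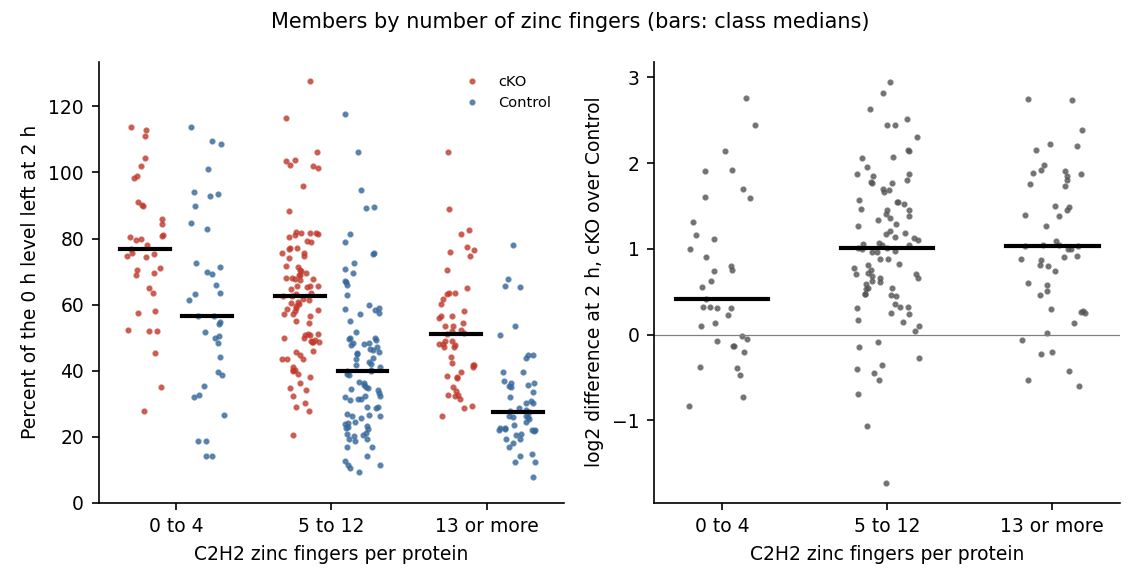
Percentage of the 0 h level left at 2 h (left, cKO in red and Control in blue) and log2 difference between cKO and Control at 2 h (right) for the 181 members with a coding transcript, by the number of C2H2 fingers. Points are genes, spread sideways at random, and bars are class medians. In Control the medians were 56.5%, 39.9% and 27.5% left.

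Members also shared features of transcript structure that the choice by name and reads had not used. Their longest coding transcripts had a median of 5 exons, against 10 in the 9485 other genes with 100 reads at 0 h and a coding transcript. The last exon had a median length of 2694 bases in members and 1265 bases in the others. The 5-base word GGACT, a common form of the sequence that the m6A complex modifies, was counted on the transcript strand. It occurred at a median of 0.81 per kb in members and 1.05 per kb in the others, and at least 1 copy was present in 93.4% of members and 92.4% of the others. A copy of the word is no evidence of methylation. Members with more GGACT per kb than the members' median had a median log2 difference of 1.07 at 2 h and 1.62 at 6 h, and the others 0.78 at 2 h and 0.91 at 6 h.

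The 90 members with a last exon longer than the members' median had 77 higher and 3 lower calls at 2 h, and the 91 others 58 higher and 12 lower, with median log2 differences of 1.00 and 0.70. By chromosome, 37 of 45 members on chromosome 7 were higher and 2 lower at 2 h, against 10 higher and 1 lower of the 21 on chromosome 17. The median log2 differences there were 1.00 and 0.47. The share higher at 2 h was 82.2% on chromosome 7 and 47.6% on chromosome 17. It was 85.6% with the longer last exons and 63.7% with the others. Over all genes with 100 reads at 0 h it was 41.3%. These splits were not tested.

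Zinc finger genes named for a second domain moved in the same direction. Of 46 Zbtb, Zkscan and Zscan genes with 100 reads at 0 h, 40 were higher and 2 lower in cKO at 2 h, with a median log2 difference of 1.24, and 44 were higher and none lower at 6 h. Over all genes with 100 reads at 0 h, 41.3% were higher at 2 h and 51.3% at 6 h. At 2 h a median of 69.0% of their 0 h level was left in cKO and 37.9% in Control. Among the numbered Zfp genes below the read limit, 123 entered the tests, and 69 of these were higher and 5 lower at 2 h. The share higher was 56.1%, beside 37.8% higher and 21.3% lower over all genes tested. The lower counts of these 123 genes leave their calls less precise.

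Trim28, the corepressor that KRAB zinc finger proteins recruit, was lower in cKO at 2 h and at 6 h, and its level was already lower at 0 h, at 212 and 232 CPM in cKO and 369 and 337 CPM in Control. It was at 177 and 169 CPM in cKO and 338 and 330 CPM in Control at 2 h, a log2 difference of -0.95 ± 0.06 (SE, n = 2 each, adjusted p = 3.5e-12, edgeR), and of -0.76 ± 0.06 at 6 h. Of the 21 genes listed for its pathway and tested, 7 were higher and 14 lower in cKO at 2 h, and 9 were higher and 10 lower at 6 h, beside 37.8% higher and 21.3% lower over all genes tested at 2 h and 46.4% and 19.8% at 6 h. At 0 h both cKO libraries were already below both Control libraries for 12 of the 21 and above them for 6. Mta2 of the NuRD complex and Uhrf1, which maintains DNA methylation, were lower at 2 h, by log2 differences of -0.89 and -0.79. Setdb1 was higher, at 84.7 and 84.6 CPM in cKO and 58.2 and 63.9 CPM in Control at 2 h, as were its cofactor Atf7ip, the histone chaperone Daxx and Morc2a, with log2 differences of 1.29, 1.64 and 1.46.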

How the data were processed

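Per the labels and the methods of the study, poly(A) RNA was sequenced as 150 bp paired reads from unstranded libraries, reads were aligned to mm10 with STAR 2.5.3a, unique alignments with a score of at least 250 were kept, and exons of GENCODE genes were counted with featureCounts 2.0.1. The counts deposited by the authors are whole reads per gene with no normalization, and 0 columns were left without a sample. Reads of overlapping genes on opposite strands cannot be told apart.

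CPM were counts divided by column totals. Genes passing filterByExpr (minimum count 10, minimum total 15) entered the quasi-likelihood test of edgeR 4.0.16 (R 4.3.3; glmQLFit and glmQLFTest) over 6 group means, library sizes being totals, with Benjamini-Hochberg adjustment. The code was run on counts simulated with the same dispersion for all genes and libraries, a simpler setting than these data. No result here rests on that run. SE is the log2 difference divided by the root of F. Fingers, linkers and words shared between genes came from GENCODE M21 transcripts, which all members' identifiers matched, 125 of them with the same version.

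The members, the gene lists and the tests were chosen with earlier results of these data known, and finger classes and feature splits after their values. Members named were the 10 largest called differences in each direction at 2 h, 6 at 6 h and 4 for the change between them, those called in opposite directions, the 6 with the highest level at 0 h, up to 4 of each role list, and those at the read limit. Others are named as examples seen in the data. Alternatives were TMM, DESeq2 1.42.0 size factors and Wald test, ribosomal protein genes as the standard, other filters, fewer libraries, a replicate block and leaving out each library. The fit without the 6 h libraries was added after the values were seen. No 2 replicates were copies of each other (chi-square per gene 2.14 to 9.16).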

Additional observations from a re-analysis of the deposited data

Results flagged for a closer look

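For 6 members the difference between cKO and Control was itself different at 2 h and at 6 h, by the test of the genotype by time term. They are the largest of the 74 members that gained and both of those that lost. The log2 difference, cKO over Control, was larger at 6 h than at 2 h by 2.08 for Zfp747, 1.62 for Zfp748, 1.59 for Zfp41 and 1.58 for Zfp764. It changed by -0.69 for Zfp369 and by -0.49 for Zfp57. At 6 h Zfp41 had 3.53 and 3.42 CPM in cKO and 0.672 and 0.702 CPM in Control, and Zfp748 had 6.12 and 4.32 CPM in cKO and 0.432 and 0.502 CPM in Control. The 6 h values rest on libraries that stood apart, the 2 Control ones in Xist and Ddx3y and the 2 cKO ones in Eno1b.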

How the results depend on the processing

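The counts of members higher at 2 h (124 to 138) and at 6 h (119 to 154), and of members lower at 2 h (12 to 23), stayed within 1.5 times of those given under every alternative run. The 6 members lower at 6 h were 15 with TMM, 17 with DESeq2 size factors, 16 with the DESeq2 Wald test and 3 to 7 with 1 library left out. For the change from 2 h to 6 h, the 74 gains were 45 with TMM, 36 with DESeq2 size factors, 25 with the DESeq2 Wald test and 52 to 75 with 1 library left out. The 2 losses were 4 with TMM, 7 with DESeq2 size factors, 1 with ribosomal protein genes as the standard, 4 with the DESeq2 Wald test, 1 with only the libraries of the times compared and 1 to 3 with 1 library left out (1 without replicate 2 of Control at 2 h, of cKO at 2 h or of cKO at 6 h). The median left at 2 h was 65.8% in cKO and 41.3% in Control with TMM, 50.2% and 31.1% with ribosomal protein genes as the standard, and 60.1 to 63.2% and 36.8 to 38.5% with 1 library left out. At 6 h the difference turned negative for Zfp106 with TMM (-0.00446), DESeq2 size factors (-0.0534) and the Wald test (-0.0652), and for Zfp598 likewise (-0.00738, -0.0562 and -0.0681). The cause was not tested. Of the values of named members under the alternatives, 1256 kept direction and side of the threshold, 38 lost and 13 gained a call, and 6 turned. Replicate numbers did not pair the libraries (correlations of -0.10 to 0.03 between groups), and a replicate block gave 136 higher and 16 lower at 2 h, 153 and 6 at 6 h, and 73 and 3 for the change. Where 1 library was left out, the lone one was assumed to vary like the other groups. Low counts limit the 6 h values of the members that fell most, such as the 1 read of Zfp764 in a Control library.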
